A study of Mus musculus with 8 samples.

Results

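Binding of the transcription factors NFIA, NFIB and NFIX was examined at 42 genes of the Wnt signalling pathway, out of 21951 protein-coding genes. The set held every protein-coding gene named Wnt or Fzd with a number, apart from 1 further Wnt gene that was not analysed here, together with Lrp5, Lrp6, Ctnnb1, Apc, Axin1, Axin2, Tcf7, Tcf7l1, Tcf7l2, Lef1, Dkk1, Dkk3, Sfrp1 and Sfrp2. A peak was tied to a gene of the set when its summit lay in the gene body, or when the nearest protein-coding transcription start site (TSS) within 100 kb was that of the gene. By this rule the set had 395 of the 139188 peaks. After peaks sharing 1 bp or more were merged over all libraries, the set had 130 of 46070 merged regions. No region was tied to more than 1 gene of the set. A tie names a neighbour and not a regulated gene, since no RNA was measured.

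The material was granule neuron progenitors, the dividing precursors of the small excitatory neurons of the cerebellum, dissociated at postnatal day 7. Chromatin immunoprecipitation and single-end sequencing (ChIP-seq) was done for each factor once in CD1 mice, an outbred stock, and once in mice with a mixed background, likened in the labels to outbred CD1. No mutation or treatment is named for any animal. The 6 libraries are named here by factor and background (NfiA, NfiB or NfiX, CD1 or Mixed), and the 2 input samples were not analysed here. The sample label and the design text name different suppliers for the NfiB antibody. The labels do not state whether separate animals were used, so agreement between libraries may be technical. Peak lists hold no transcript levels, and the labelled cell type could not be checked from them.

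Wnt proteins are secreted, lipid-modified ligands that bind Frizzled receptors, in many cases together with the co-receptors Lrp5 and Lrp6. In the canonical branch this stops a complex of Axin, Apc and kinases from marking β-catenin (Ctnnb1) for destruction, and β-catenin then enters the nucleus and acts with transcription factors of the Tcf and Lef family. Other branches act through Frizzled receptors without β-catenin and steer cell polarity and movement. Wnt1 is required for the midbrain and cerebellum to form, and secreted inhibitors of the Dickkopf (Dkk) and Sfrp families limit the range of the ligands.

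Most genes of the set had an NFI peak nearby. At least 1 peak of any library was tied to 32 of the 42 Wnt pathway genes, 76.2% (95% Wilson interval 61.5 to 86.5), against 47.2% of all protein-coding genes. A common region, that is a merged region with a peak of all 6 libraries, was tied to 12 of 42, 28.6% (17.2 to 43.6), against 12.9%. The 12 were the ligand genes Wnt10a, Wnt7b, Wnt5a and Wnt11, the receptor genes Fzd9 and Fzd7, the relay genes Apc, Ctnnb1 and Axin2, the transcription factor genes Tcf7l1 and Tcf7l2 and the inhibitor gene Dkk3. These intervals cover counting error only, and the genes were not drawn at random. Genes of the set were longer (median 22.6 against 17.4 kb for all protein-coding genes). Per Mb of the sequence that the tie rule gives to a gene, the set had 29.2 regions and 3.37 common regions, and all protein-coding genes had 19.7 and 2.35. The difference was described and not tested.

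Each library showed the same order between the set and all genes. NfiA CD1 had a peak at 20 of the 42 genes (47.6%), against 25.5% of all protein-coding genes, and NfiA Mixed at 27 (64.3%), against 32.9%. NfiB CD1 had one at 29 (69.0%), against 40.9%, and NfiB Mixed at 31 (73.8%), against 40.0%. NfiX CD1 had one at 14 (33.3%), against 15.1%, and NfiX Mixed at 21 (50%), against 30.1%. NfiX CD1, whose list was the shortest at 7497 peaks, had peaks at the fewest genes, and the NfiB libraries, with lists of 36431 (CD1) and 33283 (Mixed) peaks, at the most.

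**Figure D1:**
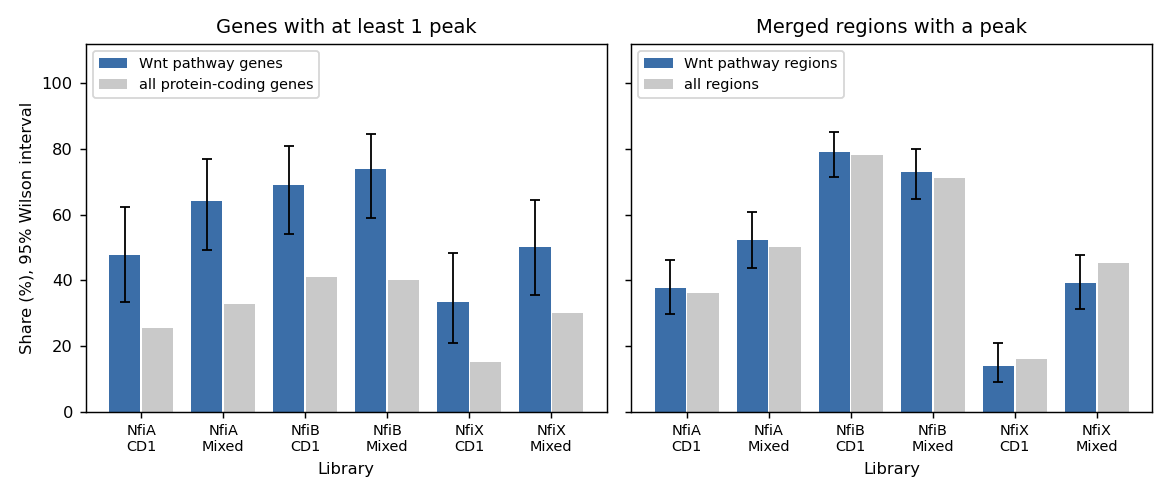
Share of Wnt pathway genes (left bars, n = 42) and of all protein-coding genes (right bars) with at least 1 peak of each library, and the same for merged regions (130 and 46070); error bars are 95% Wilson intervals on the Wnt pathway shares. The shares of genes lie above those of all protein-coding genes in the 6 libraries, while the shares of regions lie close to those of all regions.

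The regions themselves resembled those of the whole series in which libraries they held. Of the 130 regions, 15 (11.5%) were common, against 13.2% of all regions, and 38 (29.2%) had a peak of 1 library, against 31.9%. NfiA CD1 had a peak in 49 regions of the set (37.7%), against 36.0% of all regions, and NfiA Mixed in 68 (52.3%), against 50%. NfiB CD1 had one in 103 (79.2%), against 78.3%, and NfiB Mixed in 95 (73.1%), against 71.3%. NfiX CD1 had one in 18 (13.85%), against 16.0%, and NfiX Mixed in 51 (39.2%), against 45.4%. With each list cut to its strongest 7497 peaks the order for NfiX turned round. NfiX CD1 then had a peak in 18 of 28 regions of the set (64.3%), against 52.6% of all regions, and NfiX Mixed in 17 (60.7%), against 53.3%. The NfiA and NfiB libraries had one in 13 to 16 of the 28 (46.4 to 57.1%), against 53.1 to 53.5%. In the whole lists, a peak of both NfiB libraries and no other was found in 13 regions (10%), against 9.73%. All 18 regions of NfiX CD1 also had a peak of NfiX Mixed, against 6844 of the 7353 NfiX CD1 regions of the whole series. When each library was left out in turn, the number of common regions was 15 or 16 except without the short NfiX CD1 list. Without that list 29 of the 130 regions (22.3%) were common to the other 5, against 25.3% of all regions, and 15 of the 42 genes (35.7%) had one, against 20.7% of all genes, the added genes being Sfrp1, Wnt4 and Wnt9a. Of the 16 regions with a peak of 5 libraries, 14 lacked NfiX CD1, against 5581 of 6167 such regions of the whole series.

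Most summits near Wnt pathway genes lay away from gene starts. The median leading summit, that of the strongest peak of a region, lay 29.3 kb from the nearest TSS of its gene, with 58 regions upstream and 72 downstream. The median distance to the nearest protein-coding TSS of any gene was 28.1 kb in the set, against 34.9 kb for all regions. By feature, 71 lay in intergenic sequence, 44 in introns, 11 in coding exons and 4 in noncoding parts of exons. These features were not counted over all regions, so the split cannot be called particular to the set. Only 7 regions (5.385%) had their leading summit within 1 kb of a protein-coding TSS, against 10.1% of all regions. Of these, 6 lay at the start of the gene itself and 1, in Wnt5b, at that of Fbxl14. These 7 had a peak of at most 3 libraries and folds of 2.18 to 4.38. A fold is the authors' enrichment at a summit over local background and is used here only to describe and rank peaks within a list. The median fold of the set's peaks was 4.81 to 5.63 over the libraries, against 5.51 to 6.03 for all peaks. Their median percentile of fold within a list was 35.5 to 43.8. In each library the set's peaks had more fragments at the summit than all peaks, with medians of 24 to 35 against 21 to 28. Their local background was also higher, with medians of 3.58 to 5.6 fragments, against 2.42 to 4.14.

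**Figure D2:**
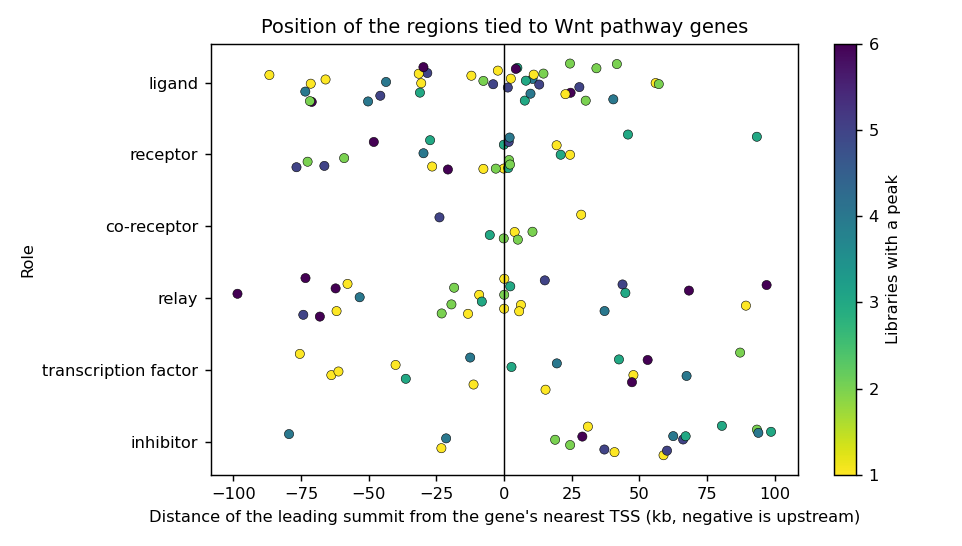
Signed distance in kb of the leading summit of each of the 130 regions from the nearest TSS of its gene (negative is upstream), by role of the gene, with colour for the number of libraries with a peak. The 15 regions with all 6 libraries lie between 4.31 and 98.5 kb from a TSS, and 14 of them more than 20 kb away. Their median distance to the nearest protein-coding TSS is 53.0 kb, close to the 55.5 kb of all 6062 common regions.

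The farthest regions inside the 100 kb limit were at Dkk1 (98.6 kb, 3 libraries) and at Ctnnb1 (98.5 kb, 6 libraries). Just outside were regions nearest to Apc at 101.2 kb, with a peak of all 6 libraries, and at 104.2 kb, with 2. A common region, 68.3 kb downstream of Axin2, stood apart in its background. It held 77 to 120 fragments at the summit on a local background of 27.4 to 43.0 fragments, above 99.95% or more of the peaks of each list, so its folds were only 2.42 to 2.98. Leaving out peaks on so high a background, a choice made after the data were seen, left 14 common regions and the same 12 genes. When TSSs of every gene type competed, Apc, Axin2, Ctnnb1, Fzd7, Fzd9 and Wnt7b lost their common regions and 6 genes had one. The share over all genes was not computed for that setting. With lists cut to the strongest 7497 peaks each, Axin2, Dkk3, Wnt5a, Wnt7b and Wnt11 lost theirs. The 7 genes left with one were 16.7% of the set, against 6.86% of all protein-coding genes.

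**Figure D3:**
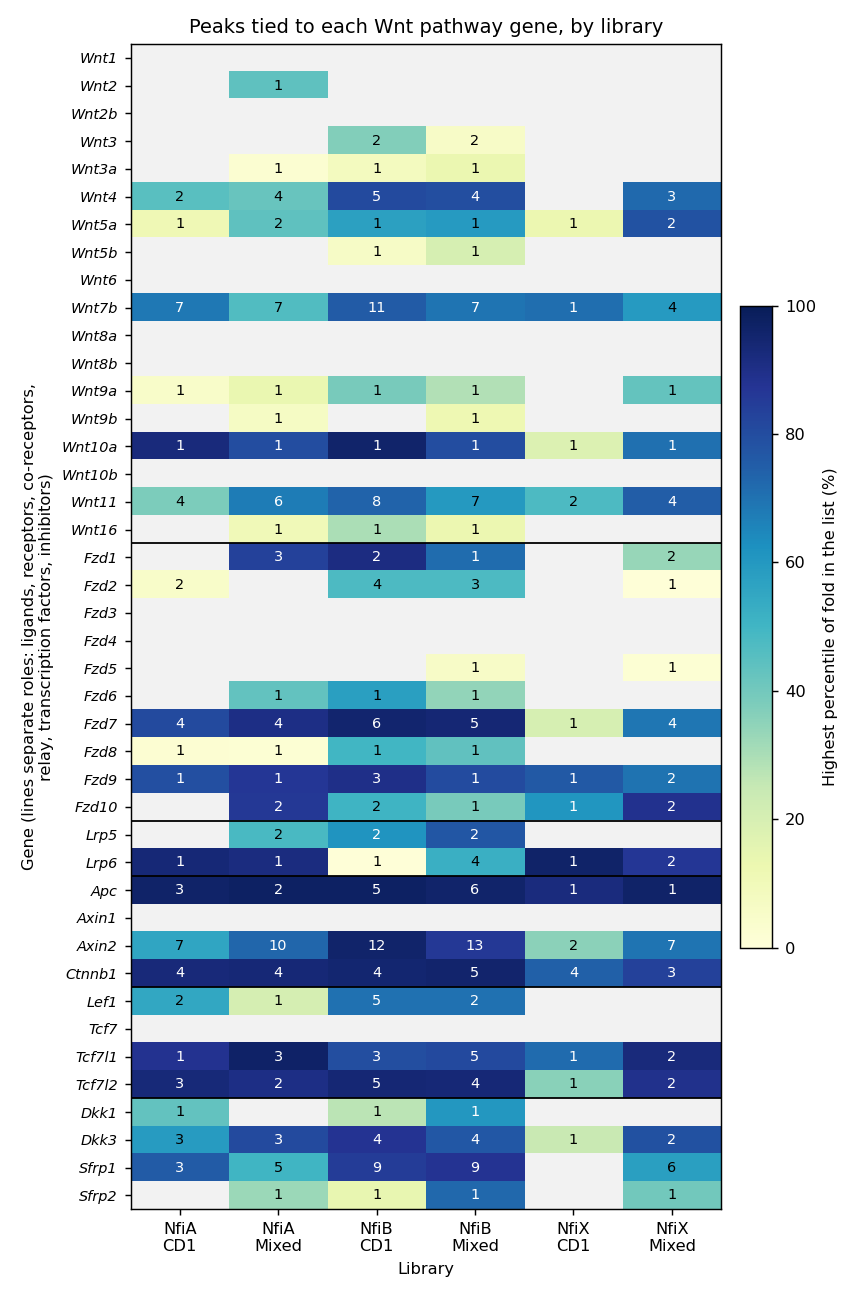
Number of peaks tied to each of the 42 Wnt pathway genes in each library (digits) and the highest percentile of fold among them within the library's list (colour, 0 to 100%; grey, no peak). Rows run by role, and 10 genes have no peak in any library.

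Among the 18 ligand genes, 12 had a peak and 4 had a common region. The ligands held 39 regions, 26 of them at Wnt7b, Wnt11 and Wnt4. The region ranked highest by mean percentile of fold lay in an intron of Wnt10a, a ligand that acts in the growth of teeth, hair and other skin appendages, 4.31 kb downstream of its TSS (chr1:74797395-74797954). Its folds were 11.2 (CD1) and 8.003 (Mixed) for NfiA, 15.9 (CD1) and 8.57 (Mixed) for NfiB, and 4.63 (CD1) and 7.64 (Mixed) for NfiX. It stood at percentile 79.7 or higher of the NfiA and NfiB lists, but at percentile 18.1 of the NfiX CD1 list. It was the only region tied to Wnt10a and, of the common regions of the set, the nearest to a TSS.

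Wnt7b, a ligand that takes part in blood vessel growth in the developing brain, had 12 regions. Its common region lay 71.1 kb upstream, in an intron of the long noncoding RNA gene Gm49539 (chr15:85652737-85653866), and was 1130 bp wide. The folds there were 7.00 (CD1) and 5.33 (Mixed) for NfiA, 8.35 (CD1) and 7.08 (Mixed) for NfiB, and 7.24 (CD1) and 6.61 (Mixed) for NfiX. This region stood near or above the middle of each list, at percentiles 46.7 to 75.7. With 2 further regions it formed a group of 3 between 71.1 and 73.5 kb upstream. Another 5 regions lay in the gene itself, with a peak of 1 to 3 libraries each.

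Wnt5a, a ligand of the branches that do not use β-catenin, had a common region 24.6 kb downstream of its TSS (chr14:28535862-28536469). Its folds were 4.06 (CD1) and 3.98 (Mixed) for NfiA, 6.32 (CD1) and 6.13 (Mixed) for NfiB, and 4.35 (CD1) and 7.17 (Mixed) for NfiX. In both NfiA lists and in NfiX CD1 it was among the weaker peaks, at percentiles 11.2 to 17.1. Wnt11, another ligand of those branches, had 8 regions, of which the one 29.8 kb upstream was common (chr7:98805124-98805471). There the folds were 5.25 (CD1) and 3.76 (Mixed) for NfiA, 7.17 (CD1) and 4.09 (Mixed) for NfiB, and 3.93 (CD1) and 4.61 (Mixed) for NfiX. Another Wnt11 region, in a noncoding part of an exon 1.35 kb downstream of a TSS, had folds of 4.66 to 8.21 in 5 libraries and no NfiA CD1 peak. Its mean percentile over those 5 was 51.35, against 27.97 over all 6 at the common region. In NfiB CD1 its fold was the lower of the pair (4.66 against 7.17).

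The other 8 ligand genes with peaks had none in all 6 libraries. Wnt4, a ligand needed for kidney and ovary development, had 2, 4, 5, 4, 0 and 3 peaks in NfiA CD1, NfiA Mixed, NfiB CD1, NfiB Mixed, NfiX CD1 and NfiX Mixed. Its intronic region 13.0 kb downstream had folds of 5.09 to 9.31 in the 5 libraries other than NfiX CD1. Wnt9a, which acts in joint formation, had 1 region, 4.06 kb upstream, with folds of 3.60 to 5.63 in the same 5 libraries. Wnt3a had an intronic region with peaks of NfiA Mixed and both NfiB libraries (folds 3.02 to 3.61). Wnt16 had a region 7.67 kb upstream with NfiA Mixed and NfiB Mixed peaks, and Wnt9b had an intronic one with peaks of those libraries. At Wnt3 both NfiB libraries had a peak in an intron (folds 4.97 and 3.10) and another in a coding exon (2.64 and 2.84), each nearer to the TSS of Nsf. Wnt5b and Wnt2 had peaks of 1 library per region.

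No peak was tied to Wnt1, Wnt2b, Wnt6, Wnt8a, Wnt8b or Wnt10b. Several Wnt genes lie side by side, as Wnt1 does with Wnt10b and Wnt6 with Wnt10a, and the sequence that the rule can give them is short: 14.9 kb for Wnt1, 13.9 kb for Wnt10b and 26.4 kb for Wnt6. Over the whole set this length had a median of 60.6 kb in the 10 genes without a peak and of 123.5 kb in the 32 with one. Its part in the counts was not tested.

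Among the 10 Frizzled genes, 8 had a peak and 2, Fzd9 and Fzd7, had a common region. Fzd9, a receptor active in hippocampus and bone, had its common region 20.8 kb upstream (chr5:135271749-135272252). The folds were 8.10 (CD1) and 9.25 (Mixed) for NfiA, 11.97 (CD1) and 8.67 (Mixed) for NfiB, and 7.75 (CD1) and 7.56 (Mixed) for NfiX. It stood in the upper part of all 6 lists, at percentiles 69.9 to 89.6. Fzd7, a receptor known from stem cells and early embryos, had its common region 48.2 kb upstream (chr1:59434021-59434549). Its folds were 8.36 (CD1) and 10.2 (Mixed) for NfiA, 15.4 (CD1) and 13.3 (Mixed) for NfiB, and 4.71 (CD1) and 7.43 (Mixed) for NfiX. It ranked at percentile 80.7 or higher in the NfiA and NfiB lists and at percentile 19.95 in NfiX CD1. Fzd7 had 6 regions, and 3 of the others, at 76.7 and 66.4 kb upstream and inside the gene, had a peak of every library except NfiX CD1.

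The Fzd7 region inside the gene lay in its coding exon, and coding peaks were also found in 4 other Frizzled genes. The share of all protein-coding genes with a coding peak was not computed. The 5 genes have 1 coding exon each, as do Fzd9 and Fzd10, which had no coding peak. Of the 11 coding-exon regions of the whole set, 5 were in Frizzled genes. Coding sequence held peaks of 5 libraries in Fzd7, 4 in Fzd8, 3 in Fzd2, and 2 each in Fzd1 and Fzd5. Their 16 summits were set against the stretch of each gene that matches the 101 bases around the NfiB CD1 summit of Fzd7. Of these, 7 lay inside that stretch, the median distance from its middle was 53.5 coding bases, and the farthest lay 141 bases away, in coding sequences of 1710 to 2055 bases. The 16 include the NfiB CD1 summit that sets the middle. The other Fzd7 summits are of the same merged region, so their nearness follows from the choice of stretch. Elsewhere the nearest and farthest summits had offsets of 21 and 44 bases in Fzd1, 26 and 81 in Fzd2, -55 and -65 in Fzd5, and -5 and -141 in Fzd8. This pattern was chosen after its values were seen and is a description. The stretches are printed to show the match between genes with coding peaks in or near them, and Fzd10 is added as one without a coding peak. They are the coding strand, read from GENCODE M21 transcripts on GRCm38, and capitals mark the NFI arms GCCAA and TTGGC. Fzd7, Fzd2 and Fzd1 carry both arms 58 bases apart, and Fzd10 has the first arm and no coding peak. Fzd8, whose stretch is not printed, and Fzd5 have coding peaks and neither arm in this stretch. The 101 bases around the leading summit do hold 1 arm in Fzd5 and 1 in Fzd8, there within TTGGCA. Fzd3, Fzd4, Fzd6 and Fzd9 have neither arm in the matched stretch and no coding peak.
Fzd7 (chr1:59484052-59484152, plus strand): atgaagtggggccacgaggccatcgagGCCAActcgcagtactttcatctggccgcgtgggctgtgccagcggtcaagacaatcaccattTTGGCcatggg
Fzd2 (chr11:102605818-102605918, plus strand): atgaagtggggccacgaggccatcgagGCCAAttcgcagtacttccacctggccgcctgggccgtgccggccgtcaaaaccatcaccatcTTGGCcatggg
Fzd1 (chr5:4756199-4756299, minus strand): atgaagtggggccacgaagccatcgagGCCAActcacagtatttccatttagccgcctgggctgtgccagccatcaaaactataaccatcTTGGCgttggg
Fzd5 (chr1:64735465-64735565, minus strand): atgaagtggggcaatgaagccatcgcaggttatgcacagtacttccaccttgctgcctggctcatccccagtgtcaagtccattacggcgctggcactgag
Fzd10 (chr5:128602238-128602338, plus strand): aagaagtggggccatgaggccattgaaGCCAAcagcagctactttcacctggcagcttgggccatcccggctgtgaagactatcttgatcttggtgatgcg

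Identity to the Fzd7 stretch was 90.1% in Fzd2, 85.15% in Fzd1, 73.3% in Fzd8 and in Fzd10, and 64.4% in Fzd5. In the genes with no coding peak besides Fzd10 it was 68.3% in Fzd9, 61.4% in Fzd4 and 53.5% in Fzd3 and in Fzd6. The Fzd5 and Fzd8 stretches were 81.2% identical to each other, and the longest identical run of Fzd2 with Fzd7 was 32 bases. The labels give neither read length nor the treatment of reads that fit several places, and whether reads of one copy were counted at another was not tested. The peaks were strongest in Fzd7. There the coding peak had folds of 4.99 (CD1) and 7.16 (Mixed) for NfiA, 9.54 (CD1) and 7.41 (Mixed) for NfiB, and 4.74 for NfiX Mixed. In the other 4 genes coding peaks had folds of 2.82 to 5.74 and none stood above percentile 49.8 of its list.

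**Figure D4:**
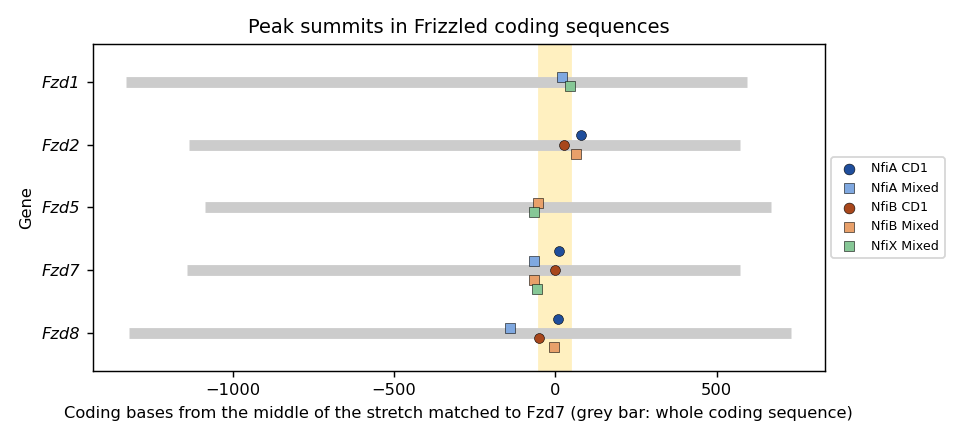
Position of the 16 peak summits in Frizzled coding sequences, in coding bases from the middle of the stretch matched to Fzd7, by gene and library (grey bars, whole coding sequence; shaded, the 101 matched bases). All summits lie within 141 bases of the middle, 7 of them inside the matched bases, and Fzd7 has the most libraries. The middle is set by the NfiB CD1 summit of Fzd7, which is among the 16.

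None of the remaining Frizzled genes had a region with a peak of all 6 libraries. Fzd2 had a region 20.9 kb downstream of its TSS with folds of 3.61 in NfiA CD1, 5.56 in NfiB CD1 and 5.36 in NfiB Mixed. A weaker Fzd2 region, 0.109 kb upstream of its TSS, had folds of 4.38 in NfiB CD1, 3.81 in NfiB Mixed and 2.88 in NfiX Mixed. Fzd1 had its strongest region in an intron of Cdk14, 59.1 kb upstream, with folds of 8.58 in NfiA Mixed and 12.7 in NfiB CD1 and no peak of the other 4 libraries. Its region with the most libraries lay 93.4 kb downstream, with folds of 6.09 in NfiA Mixed, 7.31 in NfiB Mixed and 5.13 in NfiX Mixed. Fzd10 had a region 29.8 kb upstream with folds of 9.12 for NfiA Mixed, 5.79 for NfiB CD1, and 6.50 (CD1) and 11.1 (Mixed) for NfiX. It was 1 of 3 regions with a peak of NfiX CD1 that were not common. Fzd6, known for hair and skin patterning, had 1 region with folds of 4.66 to 6.32 in NfiA Mixed and both NfiB libraries. Fzd3, an axon guidance receptor, and Fzd4, a receptor of retinal vessels, had no peak.

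Both co-receptor genes had peaks, with no common region among their 7, where 13.2% of all regions were common. Lrp6 had an intronic region (chr6:134495012-134495354) with folds of 11.6 (CD1) and 10.7 (Mixed) for NfiA, 5.65 for NfiB Mixed, and 13.5 (CD1) and 10.5 (Mixed) for NfiX, and no NfiB CD1 peak. Its mean percentile over those 5 libraries was 84.0, and it became common when NfiB CD1 was left out. Lrp6 also had a weak region 0.145 kb upstream of its TSS with folds of 2.18 (CD1) and 3.58 (Mixed) for NfiB. The strongest region of Lrp5 was intronic and had folds of 5.29 for NfiA Mixed and of 6.62 (CD1) and 8.16 (Mixed) for NfiB.

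Of the 4 relay genes, Apc, Ctnnb1 and Axin2 had 6 common regions among 27 (22.2%), against 13.2% of all regions. The 6 include the high-background Axin2 region, and the difference was not tested. Axin1, a scaffold of the destruction complex, had no peak. The strongest common region of the set by mean percentile (95.9) lay 68.1 kb upstream of Apc, a tumour suppressor of the destruction complex (chr18:34152573-34153290). Its folds were 13.5 (CD1) and 14.5 (Mixed) for NfiA, 18.3 (CD1) and 15.05 (Mixed) for NfiB, and 11.1 (CD1) and 15.6 (Mixed) for NfiX, on 76, 104, 135, 113, 53 and 90 fragments. It was the only common region of the set in the top 10% of all 6 lists. Another 7 regions were tied to Apc, with peaks of 4 libraries at most.

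Ctnnb1, the gene of β-catenin, had 3 common regions among its 4, more than any other gene of the set. All 3 lay upstream. The farthest, 98.5 kb away (chr9:120830382-120831138), had folds of 11.2 (CD1) and 11.6 (Mixed) for NfiA, 13.7 (CD1) and 14.5 (Mixed) for NfiB, and 7.56 (CD1) and 9.65 (Mixed) for NfiX. It stood at percentile 74.6 or higher in every list. The second, 62.3 kb upstream (chr9:120866307-120867195), had folds of 11.1 (CD1) and 10.7 (Mixed) for NfiA, 15.0 (CD1) and 8.44 (Mixed) for NfiB, and 6.16 (CD1) and 7.27 (Mixed) for NfiX. Its summits spread over 520 bp, the widest spread among the 15 common regions, and the merged region held 10 peaks. The weakest, 73.4 kb upstream (chr9:120855527-120855949), had folds of 5.39 (CD1) and 4.29 (Mixed) for NfiA, 7.998 (CD1) and 6.14 (Mixed) for NfiB, and 3.97 (CD1) and 5.10 (Mixed) for NfiX. The fourth region lay at the gene's own promoter and had peaks of NfiB CD1 (fold 2.83) and NfiB Mixed (fold 2.22) alone. Both were near the bottom of their lists, with a mean percentile of 1.90.

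Axin2, a scaffold gene that β-catenin itself switches on in many tissues, had 15 regions, the most of any gene of the set. Its stronger common region lay 97.0 kb downstream (chr11:109040133-109041026), with folds of 5.70 (CD1) and 6.77 (Mixed) for NfiA, 10.3 (CD1) and 7.16 (Mixed) for NfiB, and 5.36 (CD1) and 7.26 (Mixed) for NfiX. The other, 68.3 kb downstream (chr11:109011657-109012095), was the high-background region described above. Its folds were 2.98 (CD1) and 2.42 (Mixed) for NfiA, 2.75 (CD1) and 2.60 (Mixed) for NfiB, and 2.74 (CD1) and 2.50 (Mixed) for NfiX. Higher folds were found in a region 43.7 kb downstream without a NfiX CD1 peak, at 5.97 (CD1) and 7.14 (Mixed) for NfiA, 16.01 (CD1) and 10.03 (Mixed) for NfiB, and 7.50 for NfiX Mixed. A region 37.1 kb downstream had peaks of both NfiA and both NfiB libraries (folds 3.73 to 5.25) at the start of the noncoding gene Gm36876. At the Axin2 promoter only NfiB Mixed had a peak, with a fold of 2.29 and its summit 1 base from the TSS.

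Promoter sequence was compared where peaks of relay genes overlapped it. The windows are from RefSeq (GRCm38.p6) and run 250 bases upstream to 50 bases downstream of a start. The Gm36876 window holds 4 summits, 88 to 5 bases upstream of that start. The Gm19385 window lies in the Ctnnb1 region 62.3 kb upstream and is overlapped by peaks of all 6 libraries, with no summit inside. The Axin2 and Ctnnb1 windows hold NfiB summits. Capitals mark the NFI arm TTGGC and its reverse complement GCCAA.
Gm36876 (chr11:108980489-108980788, plus strand): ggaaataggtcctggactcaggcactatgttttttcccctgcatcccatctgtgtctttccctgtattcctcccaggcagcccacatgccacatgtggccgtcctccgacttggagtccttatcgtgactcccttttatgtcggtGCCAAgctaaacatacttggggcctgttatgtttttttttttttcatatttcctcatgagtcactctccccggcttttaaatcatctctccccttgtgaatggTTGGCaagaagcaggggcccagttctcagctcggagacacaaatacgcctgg
Gm19385 (chr9:120866496-120866795, minus strand): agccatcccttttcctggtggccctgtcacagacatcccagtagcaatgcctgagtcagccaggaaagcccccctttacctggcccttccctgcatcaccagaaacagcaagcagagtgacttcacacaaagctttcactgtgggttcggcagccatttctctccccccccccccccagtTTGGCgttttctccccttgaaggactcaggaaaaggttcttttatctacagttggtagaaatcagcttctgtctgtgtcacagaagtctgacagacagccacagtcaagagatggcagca
Axin2 (chr11:108920099-108920398, plus strand): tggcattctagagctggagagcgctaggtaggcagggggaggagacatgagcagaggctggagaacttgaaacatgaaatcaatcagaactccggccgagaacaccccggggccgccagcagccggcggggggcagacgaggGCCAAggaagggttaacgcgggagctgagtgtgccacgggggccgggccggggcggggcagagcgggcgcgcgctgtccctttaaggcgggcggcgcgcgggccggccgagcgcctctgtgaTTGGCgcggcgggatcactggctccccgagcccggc
Ctnnb1 (chr9:120933150-120933449, plus strand): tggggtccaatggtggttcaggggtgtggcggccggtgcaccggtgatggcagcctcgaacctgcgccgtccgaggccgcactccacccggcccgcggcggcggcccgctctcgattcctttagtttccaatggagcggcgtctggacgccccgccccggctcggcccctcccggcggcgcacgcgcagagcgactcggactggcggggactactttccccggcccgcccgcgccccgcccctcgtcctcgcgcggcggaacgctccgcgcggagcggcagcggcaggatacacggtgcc

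In the Gm36876 window both arms are part of the longer NFI element TTGGCA. The Gm19385 window holds 1 arm, the Axin2 window 2, and the Ctnnb1 window none at a GC content of 75.3%. Among the 37 promoter windows of the 28 genes of the set that matched the table, the NFI arm was in 16, against 46.7% of all 32851 windows, and TTGGCA was in 2, against 14.1%. The NFI palindrome, its arms 5 bases apart, was in 0 of the 37 windows, against 0.0365% of all. The TCF and LEF element CTTTGA was in 5 windows, against 16.0%, and the E-boxes CAGCTG and CAGATG were in 4 and 3, against 16.3% and 17.15%. Both strands were searched, and TTGGCA and the palindrome each contain the arm. Around summits in exons, 13 windows of 101 bases could be read for the set, with the arm in 7 (53.85%), against 44.1% of 3116 such windows of all regions. The 7 include the windows of Fzd1, Fzd2, Fzd5, Fzd7 and Fzd8, which are related sequences and not independent. TTGGCA was in 2 of the 13 (15.4%), against 21.2%, CAGATG in 5 (38.5%), against 19.0%, CAGCTG in 3 (23.1%), against 16.9%, and CTTTGA and the palindrome in 0, against 4.33% and 0.931%. No common region of the set had such a window.

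Of the 4 transcription factor genes, Tcf7l1 and Tcf7l2 had a common region each, Lef1 had peaks of the NfiA and NfiB libraries, and Tcf7 had none. Tcf7l1, which acts mainly as a repressor of Wnt targets, had its common region in an intron 47.2 kb downstream of the nearest of its TSSs (chr6:72740991-72741536). The folds were 9.73 (CD1) and 13.9 (Mixed) for NfiA, 9.09 (CD1) and 8.79 (Mixed) for NfiB, and 7.33 (CD1) and 12.7 (Mixed) for NfiX. It stood at percentile 71.8 or higher in every list. The Tcf7l2 region, 53.0 kb downstream of the nearest of its TSSs and outside the gene (chr19:55951221-55951963), had folds of 11.5 (CD1) and 10.3 (Mixed) for NfiA, 14.4 (CD1) and 13.1 (Mixed) for NfiB, and 5.38 (CD1) and 11.1 (Mixed) for NfiX. In 5 lists it stood at percentile 88.9 or higher, and in NfiX CD1 at percentile 35.7. Tcf7l2, a main partner of β-catenin in many tissues, lost this region when the outermost start of each gene was used as its only TSS. At Lef1 the region with the most libraries was intronic, 67.4 kb downstream, with folds of 4.67 (CD1) and 4.13 (Mixed) for NfiA and 6.04 (CD1) and 5.25 (Mixed) for NfiB. The Lef1 region with the highest mean percentile (64.9, against 36.25 for the intronic one) lay 36.3 kb upstream, with folds of 5.98 for NfiA CD1 and of 7.56 (CD1) and 7.12 (Mixed) for NfiB. Neither NfiX library had a peak at Lef1.

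**Figure D5:**
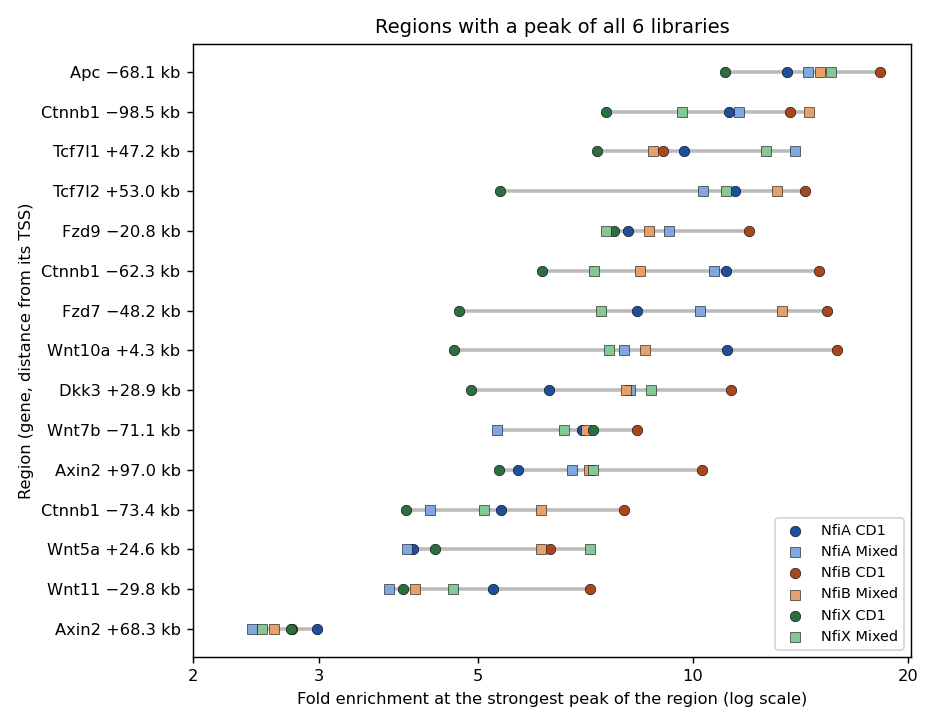
Fold enrichment (log scale) at the strongest peak of each library in the 15 common regions, ordered by mean percentile of fold; circles are CD1 and squares Mixed libraries, and grey lines join the lowest and highest. The Apc region has folds of 11.1 to 18.3, and the Axin2 region at 68.3 kb has folds of 2.42 to 2.98.

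All 4 inhibitor genes had peaks, and Dkk3 had the only common region among their 18 (5.56%), against 13.2% of all regions. Dkk3, a divergent Dickkopf family member, held it in an intron 28.9 kb downstream of its TSS (chr7:112129897-112130327). Its folds were 6.29 (CD1) and 8.15 (Mixed) for NfiA, 11.3 (CD1) and 8.07 (Mixed) for NfiB, and 4.89 (CD1) and 8.74 (Mixed) for NfiX. It stood above the middle of 5 lists and at percentile 24.5 of NfiX CD1. A second Dkk3 intronic region, nearer to the TSS of Usp47, had folds of 5.01 to 7.19 in the 5 libraries other than NfiX CD1.

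Sfrp1, a secreted decoy that binds Wnt proteins, had 11 regions and no peak of NfiX CD1. Of these, 8 lay in a stretch of 35.0 kb downstream of the gene, between 58.9 and 93.9 kb from its TSS. The Sfrp1 region with the highest mean percentile, 60.2 kb downstream (chr8:23471520-23471856), had folds of 7.69 (CD1) and 5.22 (Mixed) for NfiA, 10.4 (CD1) and 10.5 (Mixed) for NfiB, and 6.50 for NfiX Mixed. A further region of those 5 libraries lay 66.1 kb downstream, with folds of 5.24 to 10.4. Sfrp2, a related decoy, had 1 region 79.5 kb upstream with folds of 3.78 to 7.44 in 4 libraries. Dkk1, which blocks Lrp5 and Lrp6, had 1 region, 98.6 kb downstream, with folds of 5.49 in NfiA CD1, 4.46 in NfiB CD1 and 6.23 in NfiB Mixed.

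A further 48 genes of the pathway were read in the same way. Of these, 39 had a peak, where 47.2% of all protein-coding genes had one. A common region was tied to 11 (22.9%), against 12.9% of all protein-coding genes. Kremen1 and Znrf3 share 1 region, which counts for both. By group, a common region was tied to 4 of 9 other secreted inhibitor genes (44.4%) and 2 of 8 nuclear cofactor genes (25.0%). The counts were 3 of 14 genes of other receptors and receptor turnover (21.4%) and 2 of 14 other relay genes (14.3%). Wnt secretion and inactivation had 0 of 3. The groups are small, and their shares were not tested against the 12.9% of all protein-coding genes.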

How the data were processed

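The authors deposited 1 peak list per ChIP-seq library and none over pooled samples. Bowtie2 2.2.6, SAMtools 1.4.1, MACS2 2.1.0 and the mm10 build are named in the submitters' processing notes. For thresholds, read filters and any use of the inputs as controls, nothing is given in the sources used here. Per the deposited lists, each peak has a fold enrichment (a ratio) at its summit and a −log10 p-value and −log10 q-value. Being the authors' own, these values served only to describe, rank or filter peaks of 1 list. The highest q-value in a list was 0.0411 to 0.0492.

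Read totals were not used here. A whole number of fragments that gives the deposited fold and p-value under a Poisson model was found for 100% of peaks (tolerance 0.002 on the −log10 p scale). The median summit held 21 to 28 fragments. The lowest local background, a rough index of depth, was 0.856 fragments in NfiX CD1 and 0.940 to 1.39 in the other libraries, and a site without a peak may lie below the threshold.

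Genes came from GENCODE M21 (GRCm38, the assembly of mm10), and promoter sequences from RefSeq. Peaks were merged over the lists where they overlapped by 1 bp or more, and the percentile of fold is the share of peaks of the same list with a fold at or below it. Where computed, the same counts over all genes or regions stand beside those of the set, and no test was made. Every gene was accounted for, and those with a common region were described in all 6 libraries, up to 3 regions each, by mean percentile. Members and lists were chosen with earlier results of these data known. Merging, tying and fragment recovery were tested on simulated data. Alternatives were the overlap, the q-value limit, list length, distance, the tie rule, the TSSs used, the promoter width, the background limit and leaving out each library. Python 3.11.15, pandas 2.3.3, NumPy 2.4.6, SciPy 1.17.1 and Matplotlib 3.10.9 were used.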

Additional observations from a re-analysis of the deposited data

How the results depend on the processing

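The counts of the set depended mostly on how far a peak was tied and on the length of the lists. With TSSs of every biotype competing, the set had 81 regions in place of 130, 6 common regions in place of 15, 6 genes with one in place of 12, and a mean percentile of fold of 37.9 in place of 41.9. With gene bodies alone there were 47 regions, 3 common (6.38%) at 3 genes. With a limit of 50 kb, 7 regions at 7 genes were common and the mean percentile was 38.5. Shares over all genes were not computed for these tie settings. With the strongest 7497 peaks of each list there were 28 regions, 8 common (28.6%, against 21.5% of all regions). These 8 were tied to 7 genes (16.7%, against 6.86% of all protein-coding genes). Of the 28 regions 0% lay at a promoter, and the mean percentile was 77.2. That percentile was still taken in the whole lists, so a cut by fold raises it by construction. The promoter regions stood at percentile 25.4 or lower, so the same cut removed them. With a −log10 q of 5 or more the mean percentile, again taken in the whole lists, was 49.6, and Wnt11 and Wnt5a lost their common region. Promoters taken as 5 kb held 16.9% of regions in place of 5.385%. Leaving out 1 library in turn gave 111 to 130 regions, 15 to 29 common regions, 11.8 to 22.3% of regions common, 12 to 15 genes with one, 4.24 to 5.51% at a promoter and a mean percentile of 41.3 to 42.6. The upper values of the common counts came without NfiX CD1. A 50 bp overlap and the nearest TSS alone left the same 12 genes, and gene 5′ ends as the only TSSs replaced Tcf7l2 with Wnt16. No paired analysis was possible because these results are counts over separately called peak lists and come from no test. A site without a peak may lie below the threshold, and the part of depth in the short NfiX CD1 list was not tested.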

Other observations

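Among the 48 further pathway genes, the common region with the highest mean percentile of fold (92.2) lay in an intron of Znrf3, a ubiquitin ligase that removes Frizzled receptors from the cell surface (chr11:5314492-5315181), and its nearest TSS was that of Kremen1, a receptor of Dickkopf proteins. Its folds were 9.34 to 15.4 over the 6 libraries, and it counts for both genes. Wif1, Ror1, Tle3 and Nkd1 had 2 common regions each, and the values given are of the one with the higher mean percentile. Sostdc1, a secreted Wnt and BMP inhibitor, had one 24.3 kb upstream (folds 6.86 to 17.5), and Wif1, which binds Wnt proteins outside the cell, had one in an intron (folds 7.29 to 14.0). Tle4, a corepressor of the Tcf family, had an intronic region with folds of 7.30 to 18.1, and Ror1, a receptor of the branches without β-catenin, had one with folds of 6.995 to 14.3. Tle3, a second corepressor, had it 2.89 kb from a TSS in a noncoding part of an exon, with folds of 7.37 to 9.58. Sfrp4, Nkd1, Gsk3b and Apcdd1 had folds of 6.75 to 10.9, 4.62 to 14.8, 3.68 to 14.5 and 5.09 to 9.28 at theirs.

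No peak was tied to Amer1, Dkk4, Dvl2, Kremen2, Notum, Pygo1, Rspo2, Rspo4 or Sfrp5. Tle3 had 23 regions, Nkd1 had 16 and Ror1 had 15. Wls and Porcn, which act in the secretion of Wnt proteins, had 1 region each.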
